A study of Rattus norvegicus with 6 samples.

Results

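Phosphoribosyl pyrophosphate (PRPP) synthetases and enzymes of purine synthesis and salvage were followed in LN4D6 rat mammary tumour cells, with and without transfection of CREB3L1. The 10 genes Prps1, Prps2, Prpsap1, Prpsap2, Ppat, Gart, Paics, Atic, Hprt1 and Aprt were chosen for their place in this pathway. The pathway itself was selected on the measured Prps2 values of this comparison, which were lower in CREB3L1 cells. Of these, 9 were measured, by 13 probe sets that carry exactly 1 gene symbol, out of 14217 genes on the array. The probe set annotated to Paics also lists another gene and was not counted. Total RNA of 3 CREB3L1 samples and 3 untransfected samples was labelled with biotin and hybridised to Affymetrix 3' expression arrays. Both groups are the same cell line without further treatment, and the labels name no empty vector. They do not say whether the transfected cells were a clone or a pool. Nor do they say whether each sample was its own culture, and p-values therefore cover only the spread among these samples, which may be technical. CREB3L1 is a membrane-bound transcription factor of the endoplasmic reticulum that becomes active once proteases free it. The comparison of CREB3L1 with untransfected cells was used to ask whether Prps1 or other steps of the pathway lay higher where Prps2 lay lower.

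PRPP synthetases join ribose 5-phosphate and ATP to form PRPP, the activated sugar on which nucleotides are built. De novo purine synthesis starts when the amidotransferase encoded by Ppat commits PRPP to the pathway. Salvage enzymes instead attach PRPP to free purine bases. The same compound feeds pyrimidine and NAD synthesis. Prps1 and Prps2 are X-linked genes for 2 isoforms of the catalytic subunit, and Prpsap1 and Prpsap2 encode associated proteins that form complexes with them. In tumour cells driven by MYC, Prps2 is known for tying nucleotide supply to growth.

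Values are log2 RMA expression values. Detection calls were not part of the table, and a value of 5 on the log2 scale was taken as background. CREB3L1 replicate 3 stood apart from the other 5 arrays. Pearson's r with them was 0.984 to 0.989, and among those 5 it was 0.996 to 0.999, taken over probe sets that do not vary independently. For Gapdh, the control probe set at the 3' end minus that at the 5' end gave 4.77 there and -0.16 to -0.10 elsewhere. Values without this array are given beside the differences of the pathway genes that it moves by over 1.5 times. The probe set for Creb3l1 read 3.39 ± 0.03 in CREB3L1 cells and 3.36 ± 0.02 in untransfected cells (SD, n = 3 each), below background in both, and whether it reads the construct is not known here. Of the mammary epithelial markers, Krt5, Krt14 and Krt8 were above background (group means of 13.17 to 15.25), while Krt18, Krt19, Krt7, Epcam and Cdh1 were below it in both groups. Of 7 fibroblast markers, Col3a1 alone was above background. Immune markers were below it except Csf1r, and the 3 endothelial and 4 adipocyte markers measured were all below it. None of these 26 markers passed limma's test (1, Tek, had an unadjusted p under 0.05), and over all genes 2.1% did.

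Prps2 had 2 probe sets with signal, and both lay below the background level on every CREB3L1 array. The probe set 1398262_at read 2.70, 2.82 and 2.61 in CREB3L1 cells, against 8.75, 9.05 and 9.28 in untransfected cells. The probe set 1375932_at read 2.43, 2.38 and 2.21 in CREB3L1 cells, against 9.07, 9.12 and 8.71 in untransfected cells. The groups lay far apart on both. CREB3L1 replicate 3 gave the lowest reading on both, and deviated from the mean of replicates 1 and 2 by -0.15 and -0.20. Those CREB3L1 readings were all below background. Against the background level, the untransfected means put Prps2 at least 16.3-fold lower in CREB3L1 cells by 1398262_at and at least 15.6-fold lower by 1375932_at. With the background level set at 6, the bounds were 8.14-fold and 7.81-fold. The remaining probe set, 1368551_at, read 2.82 to 2.87 in CREB3L1 cells and 2.86 to 2.89 in untransfected cells, below background in both. Among all 14217 genes, the Prps2 log2 difference of -6.32 was number 5 from the lowest, where readings under the background level were used unaltered. Because this difference led to the choice of genes, no test is given for it.

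**Figure D1:**
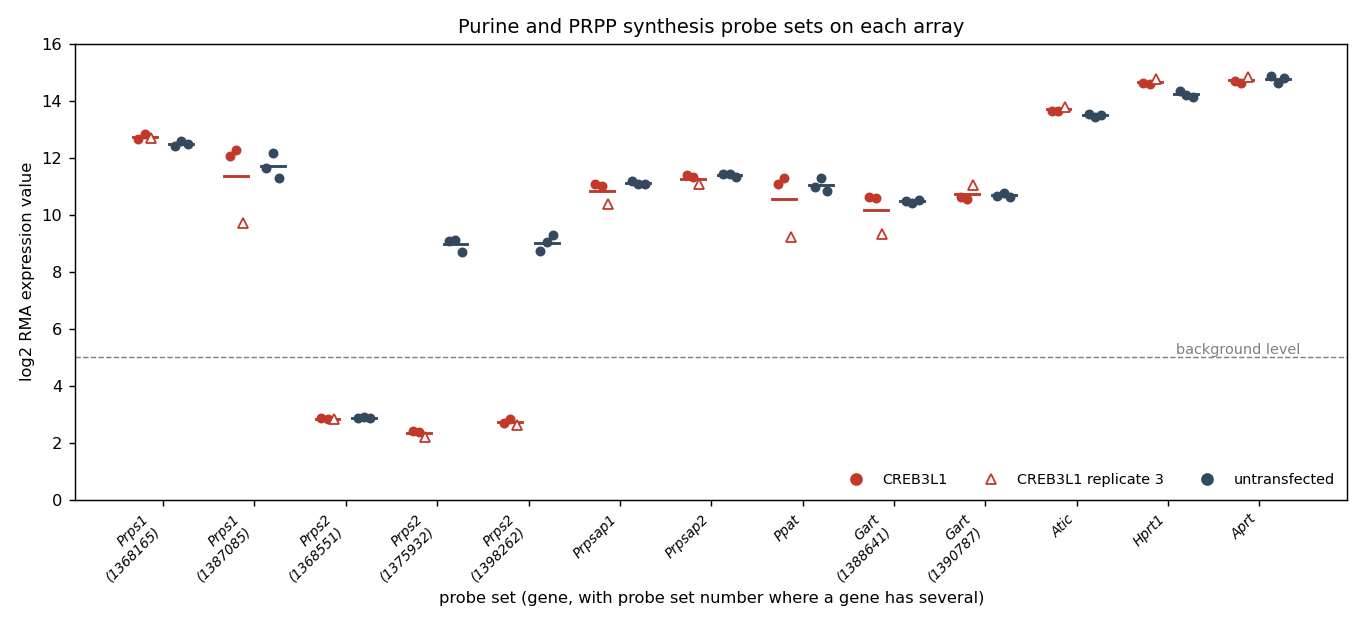
Each point is 1 array and each bar a group mean, for the 13 probe sets on the vertical axis of log2 RMA expression values, with CREB3L1 left of untransfected for each probe set. The 2 Prps2 probe sets with signal lie near 9 in untransfected cells and below the dashed background level of 5 in CREB3L1 cells, while the open triangle of CREB3L1 replicate 3 lies apart for Prps1 (1387085), Ppat and Gart (1388641).

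The genes with the profile most like that of Prps2 were found by the root mean square difference over the 6 arrays, after each gene's untransfected mean was subtracted. Among 7713 other genes above background in at least 1 group, they were Fgfbp1 (0.25), Moxd1 (0.26), Fabp4 (0.27), Bend4 (0.48) and Hpgds (0.49, all in log2 units). Fgfbp1 encodes a carrier of fibroblast growth factors, Moxd1 a monooxygenase, Fabp4 a fatty acid binding protein and Hpgds a prostaglandin D synthase. None of these 5 genes is X-linked. The CREB3L1 means of Prps2, Fgfbp1, Fabp4, Bend4 and Hpgds were below background, and these genes were considered only for their untransfected levels. The order among them is therefore one of readings, not of measured levels, and the Prps2 values used are those that chose the pathway.

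Prps1, the other catalytic isoform, was read by a bright probe set, 1368165_at, at 12.67, 12.83 and 12.70 in CREB3L1 cells, against 12.41, 12.59 and 12.48 in untransfected cells. The 3 CREB3L1 values lay just above the 3 untransfected values. The difference was 0.24 ± 0.07 on the log2 scale (estimate ± SE), or 1.18-fold with a 95% interval of 1.05 to 1.33, and it did not pass limma's test (adjusted p = 0.275). Without CREB3L1 replicate 3 it was 0.26 ± 0.08 (adjusted p = 0.188). The other Prps1 probe set, 1387085_at, read 12.07, 12.27 and 9.71 in CREB3L1 cells, against 11.63, 12.18 and 11.28 in untransfected cells. Its groups overlapped, and its low value was that of CREB3L1 replicate 3. Its difference was -0.35 ± 0.74 (adjusted p = 0.9998), and 0.47 ± 0.27 without that array (adjusted p = 0.614). The upper end of its 95% interval was 1.52 on the log2 scale with all arrays, so this probe set bounds a change of Prps1 much less tightly than the brighter one.

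The array also holds Prps1l3, a gene similar in name to Prps1 that was looked up after the values were seen. It read 11.40, 11.32 and 10.93 in CREB3L1 cells, against 11.49, 11.45 and 11.38 in untransfected cells. The difference was -0.22 ± 0.13 (limma adjusted p = 0.850), and -0.08 ± 0.05 without CREB3L1 replicate 3 (adjusted p = 0.720), which gave the lowest reading. Whether its probe set and those of Prps1 are read by each other's transcripts was not tested.

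Sequence upstream of the 2 synthetase genes is shown because Prps2 lay lower in CREB3L1 cells and Prps1, the other isoform, did not pass the test. The windows are the 250 bases before the annotated start, from RefSeq on GRCr8, both on the plus strand. Capitals mark matches on either strand to TGACG (the core of cyclic AMP response elements), CACGTG (the E-box), CCAAT or GGGCGG (the GC box).
Prps2, chrX:30592595-30592844: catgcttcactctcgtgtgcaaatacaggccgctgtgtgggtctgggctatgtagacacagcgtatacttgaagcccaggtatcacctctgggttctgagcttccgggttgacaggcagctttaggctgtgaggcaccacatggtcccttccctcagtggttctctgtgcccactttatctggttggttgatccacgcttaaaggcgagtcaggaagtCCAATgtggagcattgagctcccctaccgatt
Prps1, chrX:108920413-108920662: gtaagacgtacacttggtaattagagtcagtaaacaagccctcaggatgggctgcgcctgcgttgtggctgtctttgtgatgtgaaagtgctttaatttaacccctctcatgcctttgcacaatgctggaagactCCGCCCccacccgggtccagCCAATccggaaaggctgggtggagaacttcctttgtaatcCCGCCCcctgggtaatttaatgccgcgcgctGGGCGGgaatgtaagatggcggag
Prps2 had 1 CCAAT and 0 GC boxes in its window, and Prps1 had 1 CCAAT and 3 GC boxes. Neither window held TGACG or CACGTG. Of 21851 windows of protein-coding genes of the same length, 38.9% held GGGCGG, 35.0% CCAAT, 20.4% TGACG and 6.2% CACGTG. Over the windows of all 10 genes, 8 held GGGCGG, 4 CCAAT, 3 TGACG and 1, that of Atic, CACGTG. These matches describe the letters only.

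The associated proteins did not differ past the test. Prpsap1 read 11.08, 11.03 and 10.39 in CREB3L1 cells, against 11.19, 11.10 and 11.09 in untransfected cells. The groups did not overlap, but replicates 1 and 2 of CREB3L1 were close to the untransfected values and replicate 3 was 0.67 below the mean of those 2. The difference was -0.30 ± 0.20 with all arrays (limma adjusted p = 0.921) and -0.08 ± 0.05 without CREB3L1 replicate 3 (adjusted p = 0.674). Prpsap2 read 11.41, 11.33 and 11.09 in CREB3L1 cells, against 11.43, 11.42 and 11.32 in untransfected cells. Its groups overlapped, with a difference of -0.11 ± 0.09 (limma adjusted p = 0.9998), and of -0.02 ± 0.05 without CREB3L1 replicate 3 (adjusted p = 0.9994).

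Of the de novo enzymes, Atic, which carries out the closing steps to inosine monophosphate, lay higher by a small amount. It read 13.65, 13.66 and 13.80 in CREB3L1 cells, against 13.55, 13.44 and 13.50 in untransfected cells. The groups did not overlap, and the difference of 0.21 ± 0.06, or 1.15-fold with a 95% interval of 1.05 to 1.27, did not pass the test (limma adjusted p = 0.256).

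Ppat, the committed step, read 11.09, 11.31 and 9.22 in CREB3L1 cells, against 10.97, 11.30 and 10.82 in untransfected cells. CREB3L1 replicate 1 lay among the untransfected values and replicate 2 just above the highest of them. CREB3L1 replicate 3 was 1.98 below the mean of those 2. The difference was -0.49 ± 0.58 (limma adjusted p = 0.9998) and turned to 0.17 ± 0.16 without that array (adjusted p = 0.911).

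Gart, whose product catalyses 3 steps of the pathway, was read by a pair of probe sets that went opposite ways on CREB3L1 replicate 3. The probe set 1390787_at read 10.62, 10.56 and 11.06 in CREB3L1 cells, against 10.65, 10.76 and 10.64 in untransfected cells. The probe set 1388641_at read 10.61, 10.61 and 9.32 in CREB3L1 cells, against 10.48, 10.43 and 10.52 in untransfected cells. On that array the probe sets deviated from the mean of CREB3L1 replicates 1 and 2 by 0.47 and -1.29. Their differences, 0.07 ± 0.14 and -0.30 ± 0.37 (limma adjusted p = 0.9998 for each), both changed sign without it, to -0.09 ± 0.05 and 0.13 ± 0.04 (adjusted p = 0.611 and 0.209).

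The gap between 3' and 5' control probe sets on CREB3L1 replicate 3 accompanied the deviations of Prps1 (1387085_at), Ppat and Gart (1388641_at), by -2.46, -1.98 and -1.29. Its part in them was not tested.

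**Figure D2:**
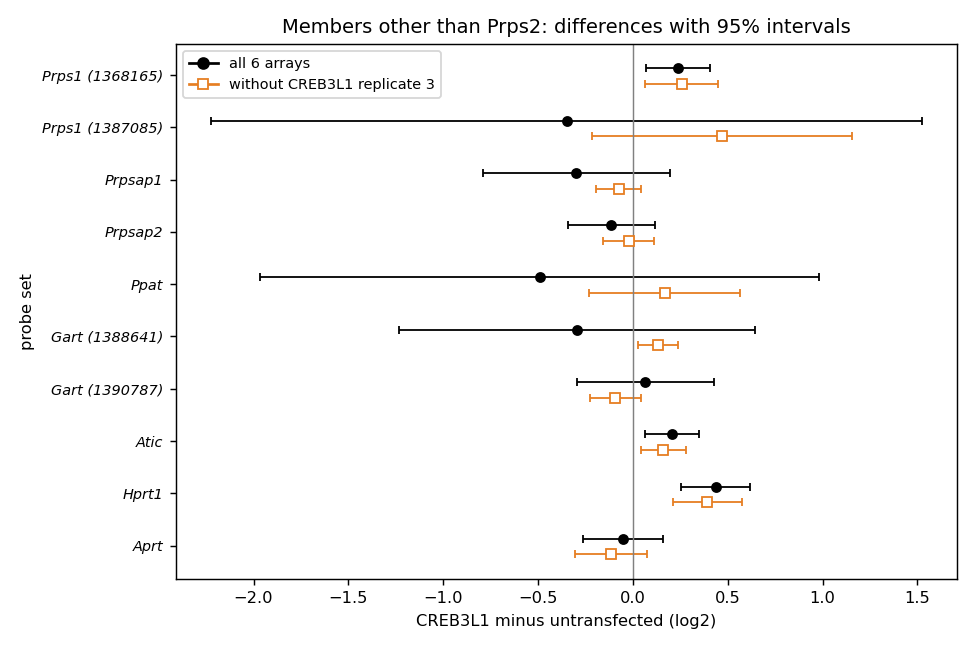
Points are log2 differences, CREB3L1 minus untransfected, for the 10 probe sets of genes other than Prps2, with limma's 95% intervals, from all 6 arrays (black) and without CREB3L1 replicate 3 (orange). The intervals of Prps1 (1387085), Ppat and Gart (1388641 and 1390787) narrow and their points cross 0 when that array is left out. Those of Prps1 (1368165), Atic and Hprt1 stay on the higher side.

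Among the salvage enzymes, Hprt1, which recycles hypoxanthine and guanine, had the largest positive difference, by brightest probe sets on all 6 arrays, of the 8 genes measured beside Prps2. It read 14.64, 14.61 and 14.76 in CREB3L1 cells, against 14.36, 14.20 and 14.15 in untransfected cells. All 3 CREB3L1 values were above all untransfected values. The difference was 0.44 ± 0.07, or 1.35-fold with a 95% interval of 1.19 to 1.54 (limma adjusted p = 0.0762). It was 0.39 ± 0.07 without CREB3L1 replicate 3 (adjusted p = 0.0566). With a weight estimated for each array, Hprt1 passed the test (0.42, adjusted p = 0.0153). Those weights gave 600 probe sets higher and 952 lower of 31042, against 132 and 299 without them. Aprt, which recycles adenine, read 14.69, 14.63 and 14.85 in CREB3L1 cells, against 14.86, 14.64 and 14.81 in untransfected cells. Its groups overlapped, with a difference of -0.05 ± 0.08 (limma adjusted p = 0.9998) and a 95% interval of 0.83-fold to 1.12-fold. Without CREB3L1 replicate 3 it was -0.11 ± 0.07 (adjusted p = 0.708).

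Counted by the brightest probe set of each gene, 0 of the 8 genes other than Prps2 passed limma's test, with or without CREB3L1 replicate 3. By probe set, 0 of the 10 of these genes passed, against 1.39% of all probe sets, of which 0.425% were higher and 0.963% lower. Over all 14217 genes, 2.1% passed with 6 arrays and 5.72% without that array. At an unadjusted p under 0.05, 3 of the 8 (Prps1, Atic and Hprt1) and 1996 of all genes were reached. The groups did not overlap for 4 of the 8, of which 3 were higher and 1 lower in CREB3L1 cells, against 19.7% of all genes. All 8 were above background in at least 1 group, but only 7714 of the 14217 genes were. The shares over all genes are therefore not those of equally bright genes. The median difference of the 8 was 0.01, and that of all genes was -0.01. A rise of Prps1 above 1.33-fold, of Hprt1 above 1.54-fold or of Atic above 1.27-fold lay outside the 95% intervals of these probe sets. Other intervals were wider, with upper ends of 1.97-fold for Ppat, 1.56-fold for Gart (1388641_at) and 2.87-fold for Prps1 (1387085_at). These figures concern transcripts and not enzyme activity or PRPP.

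The wider pathway was described by 7 lists, chosen with earlier results of these data known. Of their 69 genes 56 were measured, and 41 of these were above background in at least 1 group. Past limma's test, 1 of the 56 was higher and 2 lower in CREB3L1 cells, against 0.577% and 1.52% of all genes in those directions. At an unadjusted p under 0.05 by limma were 13 of the 56, against 1996 of all 14217 genes. The supply of ribose 5-phosphate by the pentose phosphate path had 8 measured genes, 7 of them above background in at least 1 group. Of these 8, 0 passed and 2 had an unadjusted p under 0.05. All 8 had negative differences (median -0.13), as had 7678 of all 14217 genes. Without CREB3L1 replicate 3, 1 of the 8, Rpe, had a positive difference (0.075). With all 6 arrays, the smallest p of this list was that of Tkt, the transketolase gene. It read 12.90, 12.96 and 12.78 in CREB3L1 cells, against 13.14, 13.32 and 13.39 in untransfected cells. Its difference was -0.40 ± 0.08 (limma adjusted p = 0.135).

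The other de novo purine steps had 5 measured genes, 4 of them above background in at least 1 group. Of these 5, 0 passed and 2 had an unadjusted p under 0.05 (median -0.01). Gmps, which makes guanosine monophosphate, came closest, at 13.07, 13.21 and 13.26 in CREB3L1 cells, against 12.71, 12.83 and 12.84 in untransfected cells. Its difference was 0.39 ± 0.06 (limma adjusted p = 0.0791). Of 17 measured genes of purine salvage and interconversion, 12 were above background in at least 1 group. Among the 17, 0 passed and 2 had an unadjusted p under 0.05 (median -0.02). There the smallest p was that of Xdh, the xanthine dehydrogenase gene of purine breakdown, at 10.19, 10.25 and 10.29 in CREB3L1 cells, against 10.73, 10.83 and 11.12 in untransfected cells. The Xdh difference was -0.65 ± 0.11 (limma adjusted p = 0.0751).

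Of 11 measured genes, from 13 listed, for folate one-carbon supply, 9 were above background in at least 1 group. Among the 11, 1 passed, and it does not serve that supply. It was Gch1, which encodes the cyclohydrolase that turns GTP toward tetrahydrobiopterin. Gch1 read 5.38, 5.25 and 5.79 in CREB3L1 cells, against 4.40, 4.40 and 4.31, below background, in untransfected cells. It was at least 1.39-fold higher in CREB3L1 cells (limma adjusted p = 0.0384). That bound holds for a background level of 5. At a level of 6 the CREB3L1 mean of 5.47 is also below background, and no bound can be given. The call was lost without any 1 array other than CREB3L1 replicate 3 (adjusted p of 0.0756 to 0.171), and with quantile normalisation (0.0854), median centring (0.0513) or no moderation (0.188). The mean of its probe sets gave 0.56 (adjusted p = 0.0536), and the other Gch1 probe set was below background in both groups. Without CREB3L1 replicate 3, 2 genes of this list were higher, Gch1 (adjusted p = 0.00302) and Mthfd1 (0.0478), and 2 were lower, Mthfd2 (0.0483) and Mthfd2l (0.0335). The last 3 encode enzymes of folate interconversion and were named after their values were seen. The share of all genes called was then 2.02% higher and 3.7% lower.

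The list of pyrimidine and NAD genes around PRPP held the 2 genes that were lower, of 8 measured and 6 above background in at least 1 group. Nampt uses PRPP to recycle nicotinamide into NAD precursors. It read 10.44, 10.40 and 10.36 in CREB3L1 cells, against 10.91, 10.98 and 10.91 in untransfected cells. Nampt fell by 0.53 ± 0.04 (limma adjusted p = 0.00711), and by 0.51 without CREB3L1 replicate 3 (adjusted p = 0.00722). The Nampt call did not hold under a mean-variance trend (0.0675), without CREB3L1 replicate 2 (0.0528) and in the mean of its probe sets (0.682). Its dimmer probe set, with overlapping groups, gave -0.62 ± 0.70, and -0.08 ± 0.61 without CREB3L1 replicate 3.

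Ctps2, which makes CTP from UTP and does not itself use PRPP, read 7.74, 7.84 and 8.28 in CREB3L1 cells, against 9.51, 9.55 and 9.65 in untransfected cells. The Ctps2 difference was -1.62 ± 0.15 (limma adjusted p = 0.0134), and the groups lay well apart. Without CREB3L1 replicate 3 it was -1.78 (adjusted p = 6.31e-04). The call was lost without any other single array (0.0519 to 0.0844) and in a test without moderation (0.105). The other Ctps2 probe set was below background in both groups, and the mean of both gave -0.85 (adjusted p = 0.0107). Rrm1, the ribonucleotide reductase subunit gene and the only one of its list measured, gave 0.29 ± 0.08 (limma adjusted p = 0.242). Of 6 measured nucleoside transporter genes only 2 were above background in at least 1 group, and the others were below it in both. Among the 6, 0 passed, also at an unadjusted p under 0.05, and the smallest p was that of Slc29a3 (limma adjusted p = 0.527). Slc29a3 averaged 5.29 ± 0.48 in CREB3L1 cells and 4.62 ± 0.24, below background, in untransfected cells (SD, n = 3 each), and 0.40 in place of 0.66 separated the means without CREB3L1 replicate 3.

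**Figure D3:**
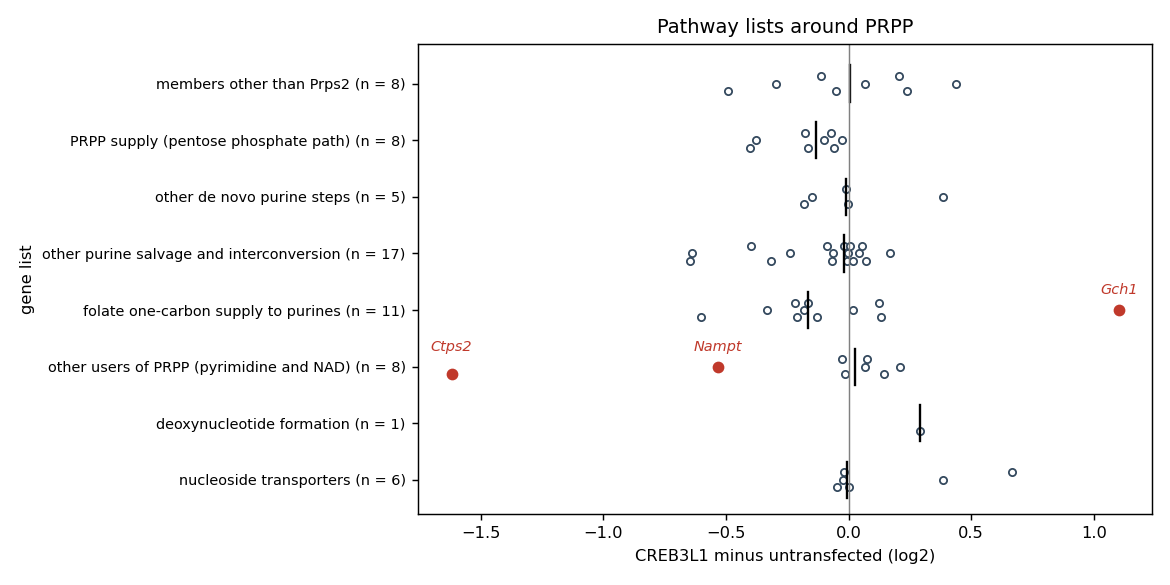
Each point is 1 gene, placed by its log2 difference, CREB3L1 minus untransfected, with the number of measured genes beside each list; filled points passed limma's test and black lines are list medians. Filled points are Gch1 on the higher side and Nampt and Ctps2 on the lower side, and none of the 8 members other than Prps2 is filled.

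Prps2, Prps1 and Hprt1 are X-linked, and their neighbours were compared in the gene order of RefSeq on GRCr8. A run of lower genes around Prps2 was known from earlier results, so its values are a description. Of the 20 nearest measured genes above background, 10 on each side of Prps2, 19 had negative differences, and the median was -0.61. For all 7691 such genes the median was 0.01. Among these 20 neighbours 7 were called lower, against 2.61% of the 7691 and 10.3% of the 233 X-linked ones. Of the 57 measured X-linked genes before Prps2 in the order, 49 had negative differences (median -0.41), and of the 175 after it, 61 did (median 0.09). Among those 175, the 10 nearest to Prps2 had a median of -0.62, so the lower run went on past Prps2. Ctps2 is in the same stretch, 12 measured genes from Prps2. Without CREB3L1 replicate 3 the median of the Prps2 neighbours was -0.54, with 19 of 20 still negative.

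Hprt1 lay among genes that were higher. Of its 20 neighbours 18 had positive differences, with a median of 0.34, against 0.44 for Hprt1 itself. Called higher among them were 2, Zdhhc9 and Mbnl3, named after their values were seen. Of the 7691 genes 1.03% were called higher, and of the 233 X-linked ones 10 were. The 20 neighbours of Prps1 had a median of 0.13, with 16 positive, against 0.24 for Prps1 itself. Called lower among them was 1, Il13ra2, also named after its value was seen, against 10.3% of the 233 X-linked genes. Around the autosomal genes the neighbour medians ran from -0.20 at Prpsap2 to 0.06 at Ppat. Of the 20 neighbours of Atic, 16 had negative differences (median -0.19), while Atic itself had 0.21. At Prpsap2 14 of 20 were negative, and at Prpsap1, Gart, Ppat and Aprt 13, 12, 7 and 8 were. The median around Prps1 was thus smaller in size than those around Prpsap2 and Atic. What the neighbours share with the 3 X-linked genes was not tested.

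**Figure D4:**
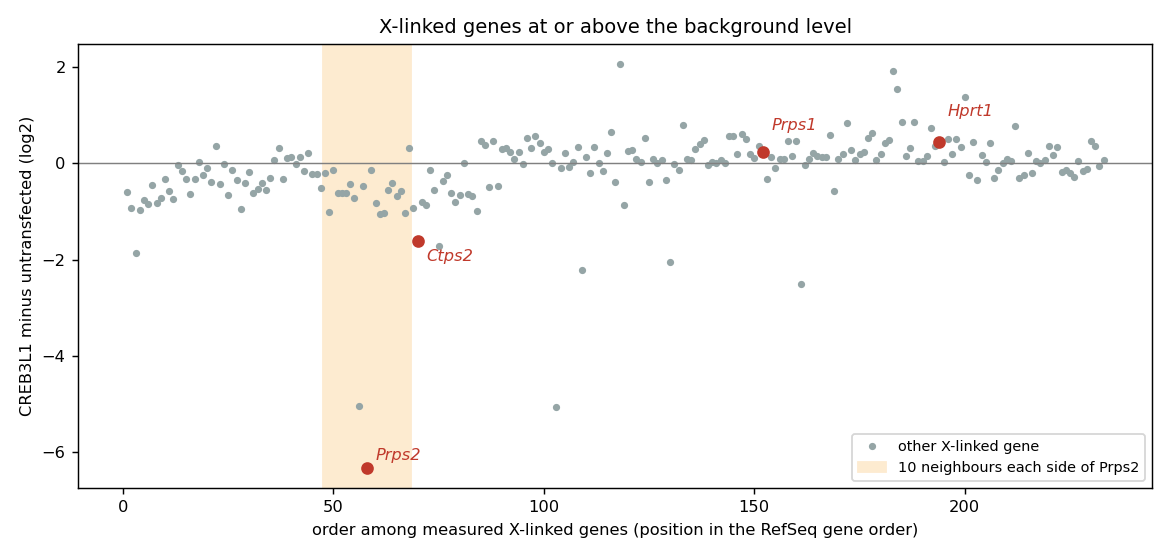
Points are the 233 measured X-linked genes above background in their order along the chromosome, against the log2 difference, CREB3L1 minus untransfected. The shaded band holds Prps2 and its 20 neighbours, 19 of which lie below 0, while Prps1 and Hprt1 lie farther along among points mostly above 0.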

How the data were processed

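The authors deposited log2 expression values per probe set for 3 CREB3L1 and 3 untransfected samples, for which the submitters' processing notes name RMA and Partek 6.6. No source used here states the log base or probe-level settings, and log2 was read from the range, 0.27 to 17.22. Scanner files were not used here. The table has 31099 probe sets, and 31042 entered the tests after removal of 57 controls. GEO's platform annotation, checked against RefSeq, gave 1 symbol to 20826 probe sets, several to 436 and none to 9780. Each of 14217 genes was represented by its brightest probe set over all 6 arrays.

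The test was that of limma 3.58.1 under R 4.3.3 (lmFit, eBayes without trend, two-sided), with Benjamini-Hochberg adjustment over 31042 probe sets and a threshold of 0.05. The fit was tested on simulated data. Differences are CREB3L1 minus untransfected. The number of arrays limits the precision. A fold against a group below a log2 value of 5 is a bound. Members and lists were chosen with earlier results of these data known. Named genes are all members, list genes past the threshold or else the smallest p, and the 5 profiles nearest Prps2. Alternatives were other normalisations, a dim filter, trend, robust or no moderation, array weights, each array left out, probe set means and background levels of 4 and 6.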

Additional observations from a re-analysis of the deposited data

How the results depend on the processing

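Of all probe sets, 132 were higher and 299 lower. These counts were 79 higher with a mean-variance trend, 9 and 65 without moderation, 600 and 952 with array weights, and 28 to 479 and 116 to 756 with each array left out in turn. None of the 8 genes other than Prps2 was called in any alternative except Hprt1, the 1 gene higher with array weights (0.42, adjusted p = 0.0153). Over its alternatives the adjusted p of Hprt1 ran from 0.0153 to 0.286. Genes of the 7 lists called higher were 1 in the comparison as reported, 0 with quantile normalisation, median centring, no moderation or probe set means, 2 with array weights and 0 to 2 with each array left out. Those called lower were 2 as reported, 1 with a trend or without moderation, 8 with array weights and 0 to 4 with each array left out. With array weights, the differences that changed sign were those of Prps1 (1387085_at) to 0.38, Ppat to 0.11, Gart (1388641_at) to 0.077 and Gart (1390787_at) to -0.10, none past the test. With each array left out they ran from -0.81 to 0.47, -0.87 to 0.17, -0.51 to 0.13 and -0.092 to 0.16. CREB3L1 replicate 3 had the lowest weight, 0.171. The Prps2 bounds of 16.3-fold and 15.6-fold became 32.6-fold and 31.2-fold at a background level of 4, and 8.14-fold and 7.81-fold at 6. No paired analysis was possible because no replicate number in the labels links a CREB3L1 sample to an untransfected one.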
